A study of Mus musculus with 50 samples.

Results

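The RNA-seq experiment compared mouse embryonic stem cells (ESCs) that keep only EZH1 with ESCs that have neither EZH1 nor EZH2. All lines derived from E14TG2a ESCs, a male mouse line, grown on gelatin with serum, LIF and inhibitors of MEK and GSK3β. In *Ezh2* KO ESCs the whole *Ezh2* gene was excised with paired CRISPR/Cas9 guides while *Ezh1* was intact, and in *Ezh1/2* dKO ESCs both genes were excised one after the other. The wild-type line (WT) and *Ezh2* Y726D, which carries EZH2 with a tyrosine-to-aspartate change that removes its catalytic activity in an *Ezh1* KO background, served as reference lines. Each line had 2 libraries, so 4 of the 8 RNA-seq libraries entered the comparison, out of 50 samples in the series. Each mutant is a clone of edited cells, so a difference between clones and a difference between genotypes cannot be told apart, and p-values measure only the spread between the libraries of each line. Of 18055 genes in the table, 13872 averaging 5 or more normalized counts over the 8 libraries were tested.

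Polycomb repressive complex 2 (PRC2) methylates lysine 27 of histone H3 through EZH1 or EZH2, and SUZ12 and EED hold the complex together. The tri-methylated form, H3K27me3, marks CpG-rich promoters of developmental genes that are silent in ESCs and is read by CBX proteins of PRC1. ESC cultures also hold rare cells in a state that resembles the 2-cell embryo, marked by the transcription factor DUX and by *Zscan4* genes. In bulk cultures, a change in the number of such cells and a change in their RNA per cell cannot be told apart.

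The 8 libraries held between 3604123 and 5181553 reads on genes. The *Ezh1/2* dKO libraries detected the most genes, 17042 and 17104, against 15661 and 15978 in *Ezh2* KO, and the part of this difference in the results was not tested. Within a line, libraries correlated across genes with r = 0.978 for *Ezh1/2* dKO, 0.973 for *Ezh2* KO, and 0.953 for both WT and *Ezh2* Y726D. The 8 ESC markers (*Pou5f1*, *Sox2*, *Nanog*, *Klf4*, *Esrrb*, *Zfp42*, *Tfcp2l1* and *Dppa5a*) were all high, with summed normalized counts from 11949.5 to 12838 in *Ezh1/2* dKO and from 13793 to 13974 in *Ezh2* KO, and none passed the test.

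The targeted genes followed the labels. *Ezh1*, on chromosome 11, measured 372 and 378 normalized counts in *Ezh2* KO and 14.01 and 20.4 in *Ezh1/2* dKO, so its log2 fold change was -4.39 ± 0.35 (standard error, SE; adjusted p = 0.00197 by limma). *Ezh2*, on chromosome 6, measured 598 and 546 in WT and at most 1.78 in every library of the 2 KO lines, with 2 reads in *Ezh2* KO and 3 reads in *Ezh1/2* dKO. The other PRC2 core genes did not pass the test. Of these, named after their values were seen, *Suz12* measured 668 and 592 in *Ezh2* KO and 701 and 618 in *Ezh1/2* dKO, and *Eed*, the reader of H3K27me3 within PRC2, measured 1282 and 1029.6 against 896 and 978 (log2 fold change -0.30 ± 0.14, adjusted p = 0.435).

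Between the *Ezh1/2* dKO and *Ezh2* KO clones, nearly all called genes were higher in *Ezh1/2* dKO. Calls required an adjusted p below 0.1 together with a log2 fold change of 1 or more in either direction. In *Ezh1/2* dKO 488 genes were higher (3.52% of the genes tested) and 8 were lower (0.0577%). The median log2 fold change of the rises was 2.74, 376 of them were at least 2 on the log2 scale, and 209 at least 3. Among all genes the median was -0.01. Both *Ezh1/2* dKO libraries lay above both *Ezh2* KO libraries in all 488 rises, as they did in 26.6% of all genes tested, while both lay below in 26.9% of all genes. At an unadjusted p under 0.05, 1465 genes were higher and 389 lower. Most of the rises started from very low levels, with a median of 6.04 normalized counts in *Ezh2* KO and 56.1 in *Ezh1/2* dKO, and 45 of them had no read in either *Ezh2* KO library. In the other lines their medians were 15.2 in WT and 29.9 in *Ezh2* Y726D. Of the 488 rises, 261 were at least 2-fold below WT in *Ezh2* KO by mean level, against 793 of the 13872 genes tested, and 384 were at least 2-fold above WT in *Ezh1/2* dKO, against 1711 of all genes. The rises were selected on these same *Ezh2* KO and *Ezh1/2* dKO libraries, so an excess over all genes is partly built in and is not separate evidence. Folds are on the log2(normalized count + 1) scale, which understates the change of low genes. The number of rises was 1124 with only the 4 libraries compared in the fit, 253 among genes averaging 20 or more normalized counts, 297 at an adjusted p under 0.05 and 166 after quantile normalization. With 1 library left out it was 62 and 52 without *Ezh1/2* dKO replicates 1 and 2, and 170 and 236 without *Ezh2* KO replicates 1 and 2, where the library that remains is assumed to vary like those of the other lines.

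**Figure D1:**
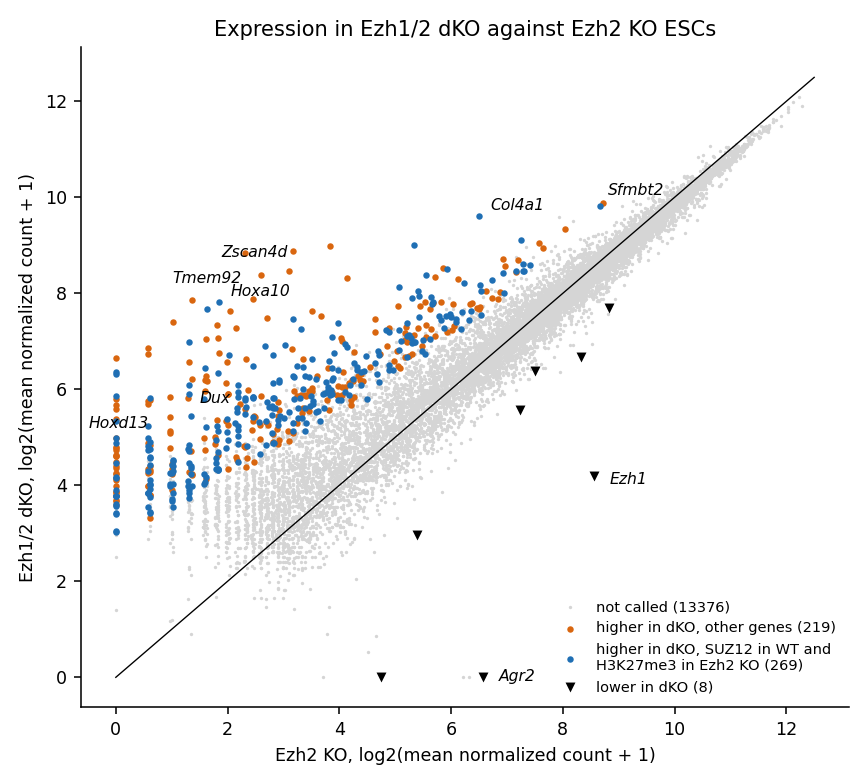
Mean level of each tested gene in *Ezh2* KO (x axis) and *Ezh1/2* dKO (y axis), both as log2(mean normalized count + 1). Blue points are the 269 rises with a SUZ12 peak in WT and an H3K27me3 peak in *Ezh2* KO near a start, orange points the other 219 rises, black triangles the 8 falls and grey points genes not called. The rises lie mostly at the low end of the *Ezh2* KO axis, and *Ezh1* stands below the diagonal.

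The deposited peak lists were used to ask where these genes stood in chromatin. Genes were assigned a peak when it lay within 5 kb of an annotated start, and there was 1 list per line and target, so the classes are described and not tested. Of 1427 tested genes with SUZ12 in WT and H3K27me3 in *Ezh2* KO, 269 were higher in *Ezh1/2* dKO (18.9%, median log2 fold change 1.13). Where SUZ12 was present in WT but H3K27me3 was not listed in *Ezh2* KO, 18 of 517 genes were higher (3.48%, median 0.29), a share near that of all genes. Where H3K27me3 was present in *Ezh2* KO without SUZ12 in WT, 33 of 341 were higher (9.68%, median 0.61). Of the 11300 genes with neither, 157 were higher (1.39%, median -0.06). The largest of these shares was found where PRC2 itself was still listed without EZH2: 115 of 402 genes with a SUZ12 peak in both WT and *Ezh2* KO were higher (28.6%, median 1.58), against 172 of 1542 genes with a SUZ12 peak in WT only (11.2%, median 0.68). The SUZ12 lists held 5404 regions in WT and 1578 in *Ezh2* KO. A gene without a listed peak in *Ezh2* KO is therefore not shown to lack PRC2, and the paper reports proper SUZ12 association at PRC2 sites in these cells.

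A tagged HA-EZH1 put back into *Ezh1/2* dKO cells gave a separate map of where EZH1 can bind. Of 917 SUZ12 genes with HA-EZH1 and no peak in the untagged control, 179 were higher (19.5%, median 1.17), and of 933 SUZ12 genes without HA-EZH1, 100 were higher (10.7%, median 0.59). H3K27 acetylation marks active promoters. Of 458 genes with H3K27ac in *Ezh1/2* dKO and not in *Ezh2* KO, 57 were higher (12.4%, median 0.58), and of 2457 genes with the reverse pattern, 11 were higher (0.448%, median -0.07). With peaks limited to p of at most 1e-20 the first share was 5.15% and its median 0.04. The H3K27ac lists held 25483 regions in *Ezh2* KO and 17618 in *Ezh1/2* dKO, so a peak missing from one list is not shown to be absent from that line. Most of the rises, 393, had no H3K27ac peak in either line, among 4996 such genes (7.87%, median 0.30). Among genes with SUZ12 in WT, 48 of 219 were higher where H3K27ac was listed in *Ezh1/2* dKO only (21.9%, median 1.07) and 228 of 1232 where it was listed in neither line (18.5%, median 1.17). The ATAC-seq lists held 795136 regions in *Ezh2* KO and 798238 in *Ezh1/2* dKO, of which 111 and 91 had p of at most 1e-10. No class was made from them.

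The level of a gene in WT moved with these medians. At 5 to 20 normalized counts in WT the median log2 fold change was 1.41 for genes with SUZ12 in WT and H3K27me3 in *Ezh2* KO and 0.33 for genes with neither. At 20 to 100 it was 0.94 and 0.09, at 100 to 500 it was 0.21 and -0.06, and at 500 or more it was -0.06 and -0.13. The class with SUZ12 and H3K27me3 was above the other at each of the 4 levels. Genes below 5 normalized counts in WT, rises among them, are in none of these levels.

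**Figure D2:**
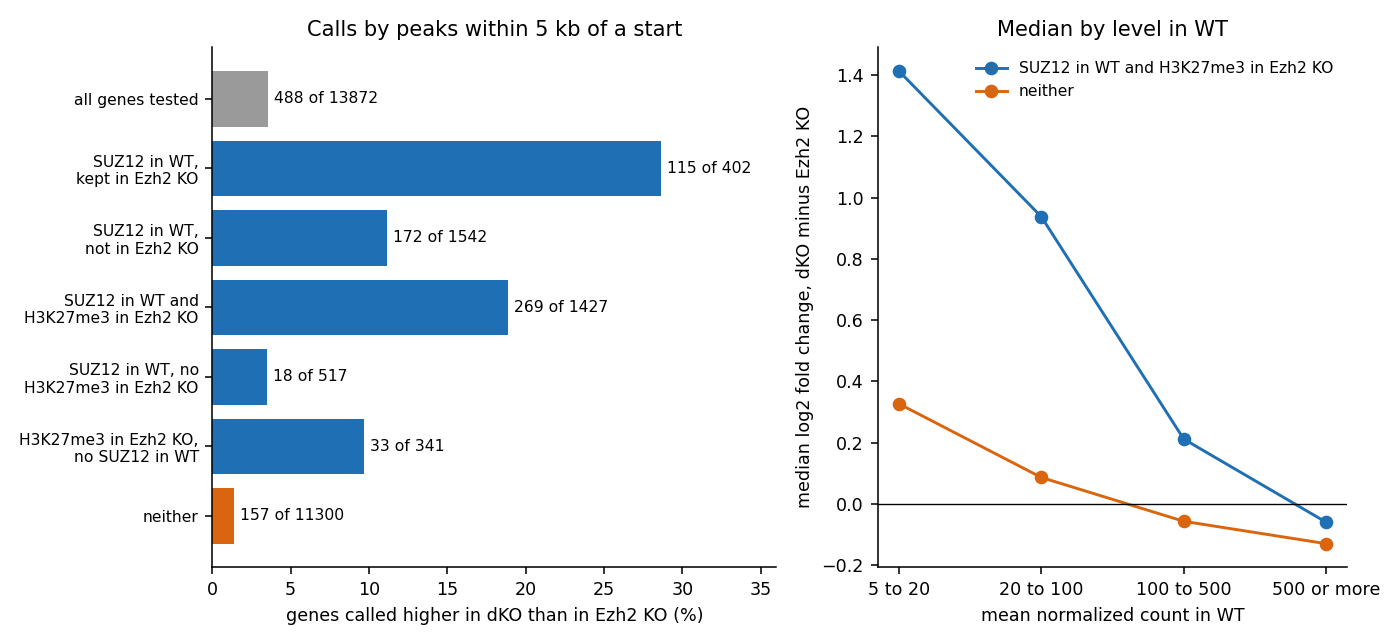
Left, percent of tested genes called higher in *Ezh1/2* dKO than in *Ezh2* KO for each class of peaks within 5 kb of a start, with the number called of the number tested beside each bar. Right, median log2 fold change by the mean normalized count in WT, for genes with SUZ12 in WT and H3K27me3 in *Ezh2* KO (blue) and genes with neither (orange). Genes below 5 in WT are not shown on the right. The blue medians go from 1.41 to -0.06 and the orange from 0.33 to -0.13.

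The promoters of the rises fell into unlike sequence classes. Over 300 bases around the start (250 before and 50 after), promoters of the 269 rises with SUZ12 and H3K27me3 held a median of 22 CpG, and those of the 157 rises with neither held a median of 4, against 19 for all 13581 promoters read. Of the same sets, 81.0%, 25.5% and 76.2% held at least 10 CpG. The 1158 uncalled genes with SUZ12 and H3K27me3 were close to the rises with these marks, with a median of 21 and 79.7% holding at least 10. The uncalled genes with neither mark had a median of 18, and of 13 where their WT level was 5 to 100. The 250 bases before the start of *Hoxd13* and *Cbx8*, from the first set, and of *Zscan4d*, from the second, show the difference in the genome build NCBIM37 (mm9), with each CpG in capitals. *Hoxd13* lies on the plus strand (chr2:74506117-74506366), and *Cbx8* (chr11:118902284-118902533) and *Zscan4d* (chr7:11751498-11751747) on the minus strand.
Hoxd13: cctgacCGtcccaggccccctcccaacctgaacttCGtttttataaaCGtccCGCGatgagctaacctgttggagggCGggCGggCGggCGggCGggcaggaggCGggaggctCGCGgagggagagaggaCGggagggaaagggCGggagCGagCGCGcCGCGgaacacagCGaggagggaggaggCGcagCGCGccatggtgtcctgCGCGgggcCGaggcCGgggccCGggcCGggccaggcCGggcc
Cbx8: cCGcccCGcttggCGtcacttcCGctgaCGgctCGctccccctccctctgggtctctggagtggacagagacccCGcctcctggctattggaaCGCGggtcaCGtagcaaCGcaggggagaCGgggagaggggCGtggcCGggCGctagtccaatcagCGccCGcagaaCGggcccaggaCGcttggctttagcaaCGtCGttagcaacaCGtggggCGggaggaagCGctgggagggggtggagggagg
Zscan4d: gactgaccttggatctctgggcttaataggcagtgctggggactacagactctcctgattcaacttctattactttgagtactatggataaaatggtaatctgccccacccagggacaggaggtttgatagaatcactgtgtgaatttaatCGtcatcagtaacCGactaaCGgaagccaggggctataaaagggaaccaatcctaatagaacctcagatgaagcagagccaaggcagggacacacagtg
These windows held 31 CpG for *Hoxd13*, 24 for *Cbx8* and 3 for *Zscan4d*.

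*Hox* genes pattern the trunk and limbs along the body axis, and 9 of them were called. Of 39 *Hox* genes listed, 36 were in the table, and 20 passed the filter on low values. These 20 had a median log2 fold change of 3.02 (2.94 with genes at no read set to their bound). The filter took the mean over all 8 libraries, so genes with few reads in WT and *Ezh2* KO passed through the lines where they were high. This median and the share of the 20 that was called (45%) therefore depend on the filter, as do those of other lists of low genes. *Hoxa10* measured 5.23 and 0 in *Ezh2* KO and 226 and 223 in *Ezh1/2* dKO, with 2.67 and 0 in WT and 424 and 493 in *Ezh2* Y726D, and its log2 fold change was 6.50 ± 0.83 (adjusted p = 0.00635). *Hoxa9* rested on 1 read in *Ezh2* KO (1.05 and 0) and measured 61.0 and 50.6 in *Ezh1/2* dKO, 111-fold by pooled reads with a 95% counting interval from 19.7 to 4434. *Hoxd13* had no read in WT or *Ezh2* KO and measured 33.8 and 23.1 in *Ezh1/2* dKO, at least 18.997-fold higher against a floor of 3 reads over the *Ezh2* KO libraries. In each of these genes both *Ezh1/2* dKO libraries lay far above every WT and *Ezh2* KO library. All 488 rises were above both *Ezh2* KO libraries.

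*Hoxa3*, *Hoxa7*, *Hoxa11*, *Hoxb7*, *Hoxd8* and *Hoxd10* were also higher, with log2 fold changes from 2.94 to 4.04. Most of these had at most 2.09 normalized counts in each *Ezh2* KO library, while *Hoxa7* went from 10.5 and 5.81 to 65.1 and 85.2. The antisense transcript *Hoxa11os* had no read in *Ezh2* KO and measured 98.1 and 63.9 in *Ezh1/2* dKO, but the libraries carry no strand, so its reads and those of *Hoxa11* where they overlap cannot be told apart. All 20 *Hox* genes tested had a SUZ12 peak in WT.

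Other developmental transcription factors also included called genes. Of 39 other homeobox factors tested, 9 were higher (23.1%, median 1.64). All 9 had SUZ12 in WT, as did 36 of the 39 tested. Among all genes tested 3.52% were higher, and among those with SUZ12 in WT 14.8%. *Pitx1*, which specifies hindlimb and pituitary, went from no read to 14.8 and 27.5, at least 13.9-fold. *En2*, a midbrain and hindbrain factor, went from 1.05 and 1.94 to 26.4 and 29.3 (log2 fold change 3.56 ± 0.51, adjusted p = 0.00952). *Pou3f1*, a factor of formative epiblast and nervous system, went from no read to 13.2 and 12.4, at least 8.51-fold.

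Of 10 bHLH factors tested, 4 were higher (40%, median 1.80). *Neurog1* and *Atoh1*, proneural genes, measured 0 and 0.968, and 2.09 and 0.968, in *Ezh2* KO and reached 22.3 and 29.3, and 42.0 and 43.5, in *Ezh1/2* dKO. Their levels in *Ezh2* Y726D were lower, at most 5.59 in each library. *Olig3* and *Ascl2* were the other 2. Of 23 forkhead, GATA, Sox and T-box factors tested, 3 were higher, *Foxa1* and *Sox11* among them (median of the list 1.72). All 3 had SUZ12 in WT, as did 20 of the 23 tested. Among all genes with SUZ12 in WT 14.8% were higher, so 3 of these 20 is close to the share of that class. The primitive endoderm factor *Gata4*, a marker on the fixed list, measured 3.14 and 5.81 against 22.3 and 20.4 and did not pass (adjusted p = 0.102).

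Chromobox subunits of PRC1, the complex that reads H3K27me3, were among the called genes. Of 20 PRC1 subunits, all tested, 4 rose while the median of the list was -0.09. *Cbx8* measured 5.23 and 6.77 in *Ezh2* KO and 73.4 and 134 in *Ezh1/2* dKO (log2 fold change 3.85 ± 0.63, adjusted p = 0.0185). *Cbx2* measured 146 and 166 against 335 and 374 (1.18 ± 0.22, adjusted p = 0.0302). *Pcgf5*, a subunit of variant PRC1 without a SUZ12 peak in WT, measured 13.6 and 20.3 against 65.1 and 73.7 (1.99 ± 0.47, adjusted p = 0.0721).

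Among signalling genes, *Wnt5a*, a ligand of non-canonical Wnt signalling, went from 2.09 and 3.87 to 50.3 and 31.1 (log2 fold change 3.39 ± 0.58, adjusted p = 0.0228). Of 32 Wnt genes tested 5 were higher (median 0.79), the others being the ligand *Wnt6*, the receptors *Fzd3* and *Fzd6*, and *Dkk3*. Of 33 genes of the BMP, TGF-beta and Nodal pathways 3 were higher (9.09%, median 0.32). The co-receptor *Tgfbr3* went from 26.1 and 29.0 to 164 and 135 (2.39 ± 0.27, adjusted p = 0.00347), and the ligands *Bmp7* and *Bmp8b* were the other 2. Of 24 FGF genes the receptor *Fgfr2* and the ligand *Fgf1* were higher (8.33%, median 0.29). These shares stand beside 3.52% of all genes tested and 14.8% of the genes with SUZ12 in WT, which made up 17 of the 33 and 13 of the 24.

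Basement membrane genes included abundant rises. *Col4a1* and *Col4a2*, which encode the 2 main chains of collagen IV and share a promoter region, went from 117 and 61.9 to 896 and 659.7, and from 12.55 and 14.5 to 150.0 and 118.98. Their log2 fold changes were 3.16 ± 0.36 and 3.21 ± 0.33, with adjusted p of 0.00363 and 0.00231. *Lamb1*, a laminin chain, and the endocytic adaptor *Dab2* were also higher, and with the 2 collagens made 4 of 13 genes tested of the primitive endoderm list (median 2.07). The 6 primitive endoderm markers *Gata4*, *Gata6*, *Sox17*, *Sox7*, *Pdgfra* and *Dab2* summed to 145 and 170.5 normalized counts in *Ezh1/2* dKO and to 10.5 and 30.0 in *Ezh2* KO, with no marker at 0 in all 4 libraries. Of 25 collagens and laminins tested 5 were higher (median 1.05), the 3 above with *Col5a2* and *Lama4*. The fibroblast marker list summed to 150.0 and 209 in *Ezh1/2* dKO and to 28.2 and 54.2 in *Ezh2* KO, and *Thy1*, a surface glycoprotein with SUZ12 in WT, gave 88.2 and 101 of it in *Ezh1/2* dKO and 15.7 and 10.6 in *Ezh2* KO. Trophectoderm markers summed to 233 and 236 in *Ezh1/2* dKO against 90.0 and 124 in *Ezh2* KO, mesoderm markers to 65.9 and 66.6 against 39.7 and 40.6, and neuroectoderm markers to 832 and 1079.7 against 524 and 843. The part of other cell types in these values was not tested.

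Imprinted genes, expressed from 1 parental allele, included 8 rises among 32 tested (25%, median 0.21), against 3.52% of all genes tested. All 8 had SUZ12 in WT, as did 15 of the 32 tested. *Dio3*, which inactivates thyroid hormone, went from 5.23 and 0.968 to 95.6 and 112 (log2 fold change 4.90 ± 0.64, adjusted p = 0.00648). *Ndn* went from 35.5 and 41.6 to 222 and 257 (2.60 ± 0.32, adjusted p = 0.00511). *Cdkn1c*, a cyclin-dependent kinase inhibitor, went from 6.27 and 5.81 to 106 and 32.9, with one *Ezh1/2* dKO library near WT (32.0 and 26.96). *Peg12*, *Peg10*, *Phlda2*, *Sfmbt2* and *Ascl2* were the other 5.

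Germline genes included rises without a listed SUZ12 peak. Of 36 tested 6 were higher (16.7%, median 1.00), against 3.52% of all genes tested and 1.63% of those without SUZ12 in WT. None of the 6 rises had a SUZ12 peak in WT, but only 6 of the 36 tested had one. *Sohlh2*, a germ cell transcription factor, went from 307 and 214 to 678 and 624 (1.34 ± 0.23, adjusted p = 0.0223). *Dazl*, a germ cell RNA-binding protein, went from 171 and 122 to 397 and 426 (1.502 ± 0.36, adjusted p = 0.0734). *Tex11*, *Tex101*, *Slc25a31* and *Taf7l* were the other 4.

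Most tested genes of the 2-cell-like list were higher. Of 18 tested on that list 16 were higher (88.9%), against 3.52% of all genes tested and 1.63% of those without SUZ12 in WT. The median log2 fold change was 4.90 over the 18, with a lowest value of -0.18. Of the 16, 15 had no SUZ12 peak in WT, and only 1 of the 18 tested had one. The list was chosen with earlier results of these data known, so its share is not separate evidence. *Dux* measured 0 and 2.90 in *Ezh2* KO and 48.6 and 63.0 in *Ezh1/2* dKO (4.83 ± 0.69, adjusted p = 0.00952), on 3 reads in *Ezh2* KO, which gives a ratio of 36.9 with a counting interval from 12.3 to 181. *Zscan4d* measured 5.23 and 4.84 against 254 and 412 (5.75 ± 0.54, adjusted p = 0.00217). *Zscan4c*, *Zscan4f*, *Zscan4e* and *Zscan4b* had log2 fold changes of 5.41, 5.17, 5.24 and 4.30. *Tmem92* had the largest log2 fold change of the 488 rises, 6.78 ± 0.67, with 3.14 and 0 in *Ezh2* KO and 171 and 289 in *Ezh1/2* dKO. Both *Ezh1/2* dKO libraries were above both *Ezh2* KO libraries in each of these genes, as in all 488 rises and in 26.6% of all genes tested.

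Over the 4 lines these genes were also high in WT. *Zscan4d* measured 301 and 125 in WT and 21.4 and 59.3 in *Ezh2* Y726D, and *Dux* measured 36.02 and 23.1 in WT and 5.35 and 3.36 in *Ezh2* Y726D. For the 18 tested genes of the list the median level was 166 in *Ezh1/2* dKO, against 3.08 in *Ezh2* KO, 59.1 in WT and 14.5 in *Ezh2* Y726D. The tested *Hox* genes, some of which passed the filter through the lines where they were high, ran otherwise, with medians of 22.4, 3.08, 1.44 and 23.9 in the same order. The *Usp17l*, *Tdpoz*, *Zscan4* and PRAME genes are families of near-identical copies, so the split of reads between members is uncertain.

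**Figure D3:**
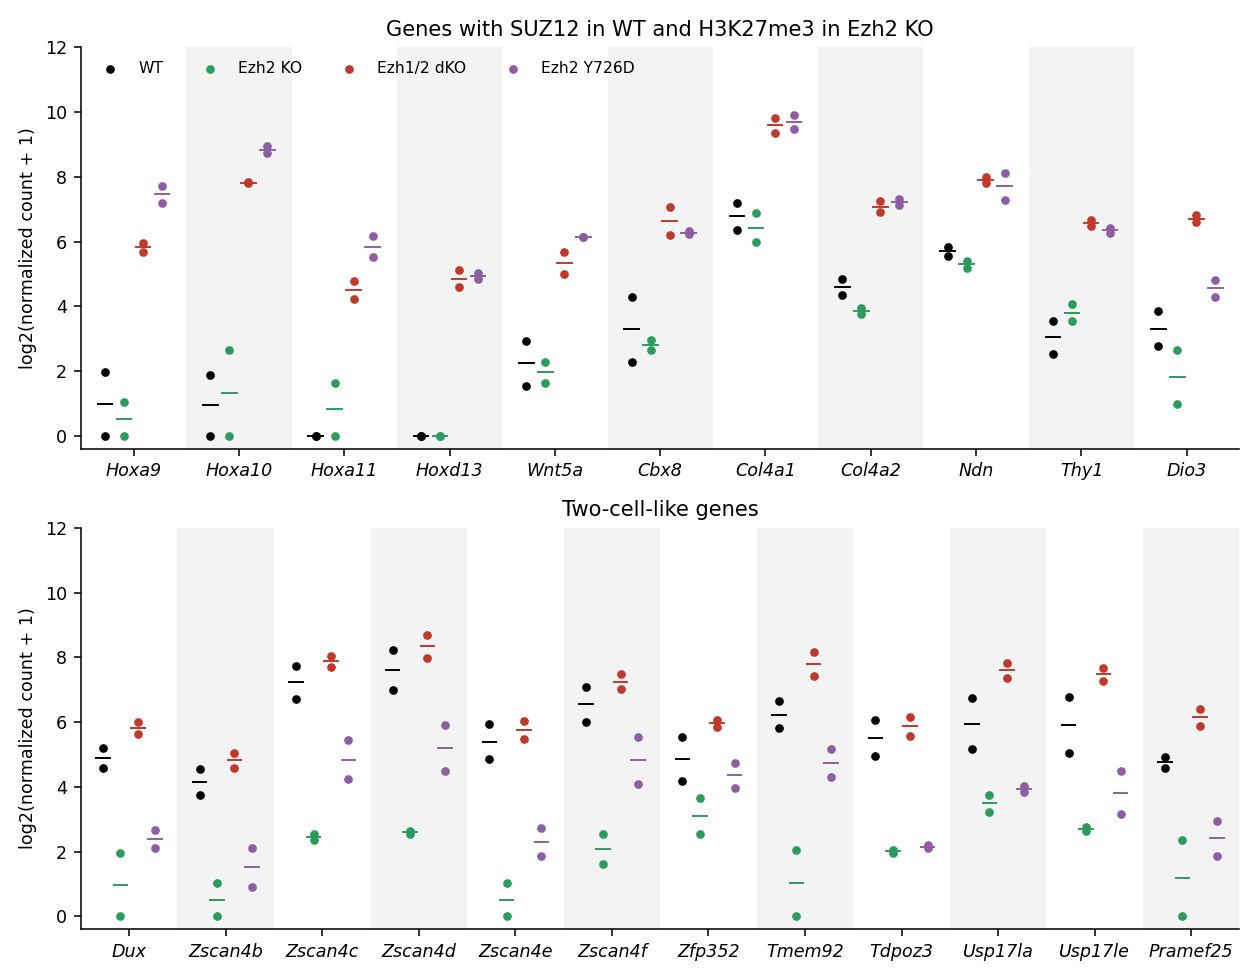
Level of 11 genes with SUZ12 in WT and H3K27me3 in *Ezh2* KO (top) and 12 genes of the 2-cell-like list (bottom) in each library, as log2(normalized count + 1); points are libraries and bars the means of their log2 values. In the top panel *Ezh1/2* dKO and *Ezh2* Y726D are above WT and *Ezh2* KO. These 11 genes were picked for display. Of the 269 rises with these marks, both *Ezh2* Y726D libraries lay above both WT libraries in 186 and below both in 15. In the bottom panel the mean normalized counts are lowest in *Ezh2* KO and highest in *Ezh1/2* dKO, with *Ezh2* Y726D below WT.

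The 20 largest rises with a mean of at least 20 normalized counts over the 4 libraries included *Hoxa10*, *Hoxa11os*, *Tmem92* and *Zscan4d*. *Dcc*, a netrin receptor, and *Inpp4b*, a lipid phosphatase, had SUZ12 in WT and H3K27me3 in *Ezh2* KO but were present in WT (41.4 and 7.70 for *Dcc*, 42.7 and 8.67 for *Inpp4b*), had no read in *Ezh2* KO, and measured 71.7 and 87.0, and 51.1 and 63.0, in *Ezh1/2* dKO. *Arg2* and *Cacna1s*, with the same 2 marks, were also present in WT (44.0 and 25.03, and 42.7 and 17.3) and measured 173 and 234, and 95.6 and 156, in *Ezh1/2* dKO. The others included *Gm8994*, from 3.14 and 4.84 to 396 and 522, and *Gm13119*, from 2.09 and 0 to 149 and 187.

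A sequence of the kind bound by double homeodomain proteins such as DUX, GATTNAATC, which reads the same on both strands, was searched in the 300-base promoters. It was present in 26 of 13581 promoters (0.191%), in 6 of the 157 rises with neither mark (3.82%) and in 1 of the 269 with SUZ12 and H3K27me3 (0.372%). Of the 18 promoters of the 2-cell-like list only *Pramef25* held it, and *Dux*, *Tmem92* and the *Zscan4* genes did not. *Pramef25* (chr4:143544603-143544852, minus strand) and *Gm13119* (chr4:143947595-143947844, plus strand) are shown for the 250 bases before their starts, with the match in capitals. The windows resemble each other, so they are not separate occurrences. Both are among the 6 rises with neither mark, so these are not 6 separate occurrences.
Pramef25: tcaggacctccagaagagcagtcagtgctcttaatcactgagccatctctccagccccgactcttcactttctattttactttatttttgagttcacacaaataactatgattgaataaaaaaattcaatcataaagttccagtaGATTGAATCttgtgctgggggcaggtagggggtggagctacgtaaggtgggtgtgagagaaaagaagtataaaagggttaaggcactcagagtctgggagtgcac
Gm13119: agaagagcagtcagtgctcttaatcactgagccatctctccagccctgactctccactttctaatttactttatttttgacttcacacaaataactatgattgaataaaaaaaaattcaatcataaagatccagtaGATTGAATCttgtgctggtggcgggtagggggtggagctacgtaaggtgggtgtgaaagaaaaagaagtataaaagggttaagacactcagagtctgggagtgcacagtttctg

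The comparison of *Ezh2* Y726D with WT shares no library with that of *Ezh1/2* dKO with *Ezh2* KO, so its fold changes come from other libraries. Its fit estimated the spread from all 8 libraries, including those that defined the rises, so its calls are not independent of theirs. The filter on low values also took the mean over all 8 libraries. Genes low in WT could therefore pass through their *Ezh2* Y726D levels, which favours *Ezh2* Y726D above WT among low genes. The size of this effect was not tested. Among all genes tested, 230 were higher (1.66%) and 147 lower (1.06%) in *Ezh2* Y726D than in WT. Of the 269 rises with SUZ12 and H3K27me3, 66 were higher (24.5%) and 1 was lower (0.372%), with a median log2 fold change of 1.10. Of the 157 rises with neither, 13 were higher (8.28%) and 11 lower (7.01%), with a median of -0.08. Both *Ezh2* Y726D libraries lay above both WT libraries for 186 of the 269 (69.1%) and for 59 of the 157 (37.6%), against 19% of all genes. Both lay below for 15 (5.58%) and 58 (36.9%), against 18.1% of all genes. A fit on these 4 libraries alone called 20 genes higher, 14 of them among the 269. Read after the values were seen, the WT libraries differed in the immediate early gene *Egr1* (2118 and 9.63), and *Uty*, on the Y chromosome, had no read in *Ezh2* Y726D but 284 or more normalized counts in the 4 libraries compared.

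**Figure D4:**
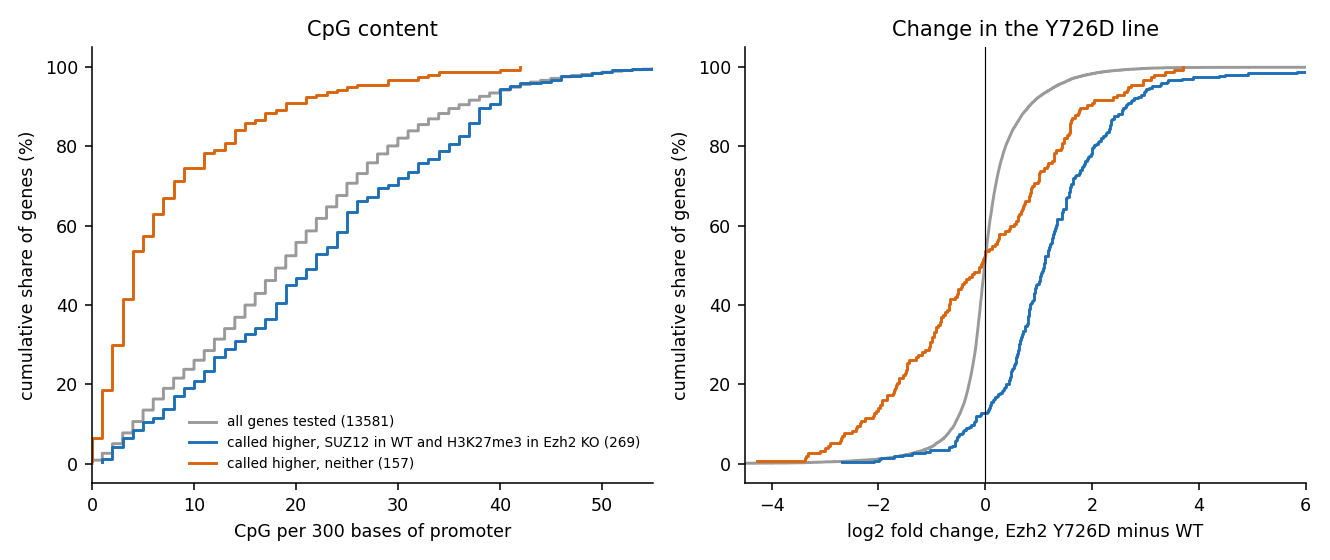
Cumulative share of genes (y axis, percent) by the number of CpG in the 300 bases around the start (left) and by the log2 fold change of *Ezh2* Y726D over WT (right). Grey is all genes tested, blue the 269 rises with SUZ12 in WT and H3K27me3 in *Ezh2* KO, and orange the 157 rises with neither; the median CpG numbers are 19, 22 and 4, and the median log2 fold changes of the blue and orange sets are 1.10 and -0.08.

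The 8 falls included *Ezh1* itself. *Agr2*, an endoplasmic reticulum protein of secretory epithelia, measured 101 and 87.1 in *Ezh2* KO and had no read in *Ezh1/2* dKO, but WT libraries gave 0 and 125. *Nkx6-3* measured 40.8 and 40.6 against 7.42 and 6.22 (log2 fold change -2.42 ± 0.54, adjusted p = 0.0582). *Prdm1*, the repressor BLIMP1 of germ cell and plasma cell development and the only fall with a SUZ12 peak in WT, measured 350.3 and 291 against 143 and 58.6 (-1.79 ± 0.43, adjusted p = 0.0764). *Accsl* and *Ddx58*, which encodes the RNA sensor RIG-I, had log2 fold changes of -1.13 and -1.11. *Rnf186*, named after its values were seen, measured 27.2 and 24.2 against no read. Without *Ezh1/2* dKO replicate 1 there were 2 falls and without replicate 2 there was 1, and without *Ezh2* KO replicates 1 and 2 there were 1 and 4.

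Pluripotency genes were almost all uncalled. Of 24 naive pluripotency genes, all tested, *Dppa3* was the only one called, at 170.4 and 114 in *Ezh2* KO and 283 and 414 in *Ezh1/2* dKO (log2 fold change 1.29 ± 0.33, adjusted p = 0.0953), and the median of the list was -0.14. *Dppa3*, a maternal factor that limits DNA methylation in the oocyte and germ line, measured 21.4 and 20.1 in *Ezh2* Y726D. *Tet3*, which oxidizes 5-methylcytosine and has SUZ12 in WT, went from 75.3 and 69.7 to 213 and 178 (1.42 ± 0.32, adjusted p = 0.0582), the only call among 13 DNA methylation and TET genes.

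The remaining lists ranged widely in their calls. The list of loci drawn as examples in the original work gave 6 rises of 11 tested (median 3.25, or 3.10 with genes at no read set to their bound). Those loci were picked on these samples, so their count is not independent evidence. The formative epiblast, trophectoderm and cyclin-dependent kinase inhibitor lists held 1 rise each, *Pou3f1*, *Ascl2* and *Cdkn1c*. Of 47 axon guidance and adhesion genes 5 were higher (10.6%, median 0.76), among them *Dcc*, *Sema6a* and *Efna5*. Genes with SUZ12 in WT, of which 14.8% were higher among all tested, made up 31 of the 47. Of 8 neuroectoderm genes tested 3 were higher, *Neurog1* and *Nes* among them. None of 9 primitive streak and mesoderm genes was called by limma (median 1.62), where *Cdx2* measured 1.05 and 25.2 against 28.0 and 83.5 (adjusted p = 0.481) and *T* measured 0 and 2.90 against 11.5 and 11.5 (adjusted p = 0.255). None of 17 stress response genes or 8 PRC2 accessory genes was called, with *Hspa1b* and *AU022751* at adjusted p of 0.168 and 0.258. The 38 ribosomal protein genes had log2 fold changes from -0.26 to -0.16, and none was called.

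**Figure D5:**
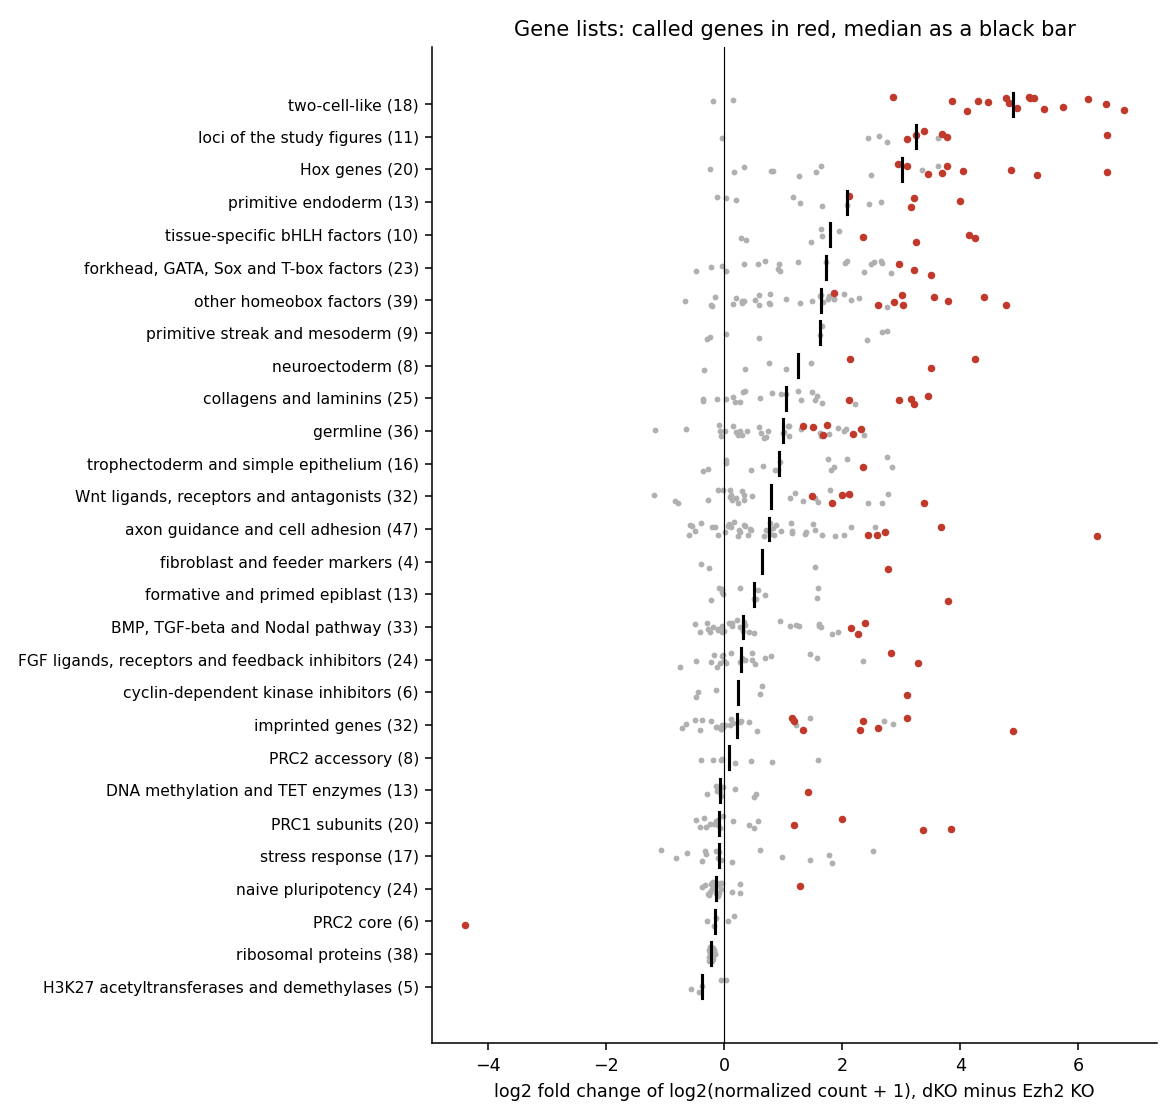
Log2 fold change of *Ezh1/2* dKO over *Ezh2* KO (x axis) for the tested members of each gene list, with the number tested in parentheses. Red points are called genes, grey points the others and black bars medians, which go from -0.37 for H3K27 acetyltransferases and demethylases to 4.90 for the 2-cell-like list.

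The rises were spread over the genome. The median log2 fold change of chromosomes 1 to 19 and X lay between -0.07 and 0.06, so no whole chromosome stood apart between the lines. Chromosome X had the highest share of genes called higher, 38 of 502 (7.57%), and chromosome 16 the lowest share of the autosomes, 4 of 413 (0.969%).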

How the data were processed

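RNA-seq libraries were made by SMART-seq2 from poly-A RNA. Per the methods, the authors aligned reads to mm9 with TopHat, removed duplicates with Picard, which compresses high counts of single-end reads, counted without strand with HTSeq over RefSeq genes, and normalized with DESeq2. The table deposited by the authors holds counts divided by size factors, a normalized signal; the values are whole multiples of 1 read in 100% of cases (within 0.1 read), so reads were recovered. Peak lists come from MACS2, with a deposited -log10 p of at least 10 for SUZ12, H3K27me3 and H3K27ac; columns of the authors' own comparisons were not used. Because the table is not raw counts, limma 3.58.1 (R 4.3.3) with a trend was run on log2(normalized count + 1) over all 8 libraries, with Benjamini-Hochberg adjustment, and edgeR 4.0.16 and DESeq2 1.42.0 on recovered reads were alternatives. The fit was tested on simulated data. Peaks were matched to GENCODE starts (NCBIM37); 16570 of 18055 genes matched by symbol and 854 by synonym. Counting intervals and floors cover counting error only. Named genes were *Ezh1* and *Ezh2*, the 20 largest rises and up to 15 largest falls whose libraries did not overlap and whose mean was at least 20, called genes of 28 lists, and the 2 largest changes of lists without calls. Members and lists were chosen with earlier results of these data known. Some results are not reported here.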

Additional observations from a re-analysis of the deposited data

How the results depend on the processing

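The fall of *Ezh1* kept its direction and its call under every alternative run, with log2 fold changes from -4.83 to -4.11. The count tests on recovered reads called 522 genes higher and 6 lower (edgeR) and 498 higher and 14 lower (DESeq2), and 466 and 399 of the 488 rises were among them. The rises numbered 253 among genes averaging 20 or more normalized counts, 166 after quantile normalization, 1124 with only the 4 libraries compared and 297 at an adjusted p under 0.05, and the falls 5 with a mean of at least 20, 57 with only the 4 libraries compared and 2 at an adjusted p under 0.05. With 1 library left out, which leaves a line with 1 library assumed to vary like the others, the rises numbered 52 to 236 and the falls 1 to 4. In the same fits the percent called higher was 2.03 to 8.97 for genes with SUZ12 in WT and H3K27me3 in *Ezh2* KO, 0.168 to 0.708 for genes with neither, 1.97 to 6.33 for genes with H3K27ac in *Ezh1/2* dKO only and 1.7 to 7.8 for genes with HA-EZH1. With peaks at p of at most 1e-20 the H3K27ac class fell to 5.15% called and a median of 0.04. In a fit chosen after seeing the data, on only the 4 libraries of WT and *Ezh2* Y726D, 14 of the 269 rises were called higher in *Ezh2* Y726D, against 66. Replicate numbers are not stated to pair libraries; deviations of same-numbered *Ezh2* KO and *Ezh1/2* dKO libraries correlated at 0.22, and a replicate block gave 405 rises and 7 falls, with 384 of the 488 among the rises. The causes of these changes were not tested. With 2 libraries a line, genes of a few reads had wide counting intervals, and a gene that was not called is not shown to be equal.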
